A study of Mus musculus with 18 samples.

Results

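The expression of 39 genes known as type I interferon stimulated genes was examined in spleen cells of mice that received an immunoregulatory liposome. The members were matched by gene symbol from a list made with earlier results of these data known. All 39 were found among the 47729 reference genes that every expression table held. Levels were given as FPKM (fragments per kilobase of transcript scaled to sequencing depth), and a score was taken as the mean log2(FPKM + 0.5) over the 39 members in each library. Testing was limited to protein-coding genes that averaged 0.5 FPKM or more across the 18 libraries, which left 11436 genes, 38 members among them. Mx2 was the member outside the test, because the annotation lists it as a polymorphic pseudogene.

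All mice were labelled C57BL/6J and female, with an age of 4 to 6 weeks in the labels and 6 to 8 weeks in the study's methods. Naive mice (N, n = 3) received nothing. LM mice (n = 3) received LPPC/MP, a cationic liposome-PEG-PEI complex (LPPC, 100 µg) carrying 200 µg of membrane protein from dendritic cells (MP), by the intravenous route with a boost, and RNA was taken at week 3. LMA mice (n = 6) received the same LPPC/MP doses and then weekly LPPC/MP with 1.5 µg of anti-CD28, an antibody to the costimulatory receptor of T cells. LMS mice (n = 6) had anti-CD152 in its place, which binds CTLA4, the inhibitory counterpart of CD28. Both antibody groups were sampled at weeks 4 to 5, and the labels do not separate mice modulated a single time from those modulated again. The design sets LMA and LMS apart by the antibody, but the mix of dose numbers and weeks within each group is not known. A comparison of either with LM also spans the added doses and the later week, and these cannot be told apart. Whether each sample was a different mouse is not stated, and p-values measure only the spread between these samples, which may be technical. The labels call the material spleen, while their protocol fields describe the removal of melanoma from tumour-bearing mice. Of 6 melanocyte markers, Dct, Mlana, Tyr and Tyrp1 were under 0.5 FPKM in every library. Mitf, which other cells such as macrophages also express, was 10.1 to 20.1 FPKM in 14 libraries and at most 0.85 in N 1, N 2, LMS 2 and LMS 5, and Pmel was 1.05 to 1.97 FPKM in those 4 and at most 0.37 in the rest.

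Type I interferons are cytokines that infected or stimulated cells release. They bind the receptor chains Ifnar1 and Ifnar2, whose kinases activate a complex holding Stat2 and Irf9. It binds the interferon-stimulated response element (ISRE) in the promoters of its targets. The proteins made in this way sense viral nucleic acid, block translation or virus release, or adjust the response itself. Irf7 is both a product of this response and a factor that amplifies the making of interferon.

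To show the element through which these genes are known to be driven, the promoters of the members were read from RefSeq (GRCm38.p6, 250 bases before to 50 bases after each start). A window was found for 28 of the 39 members. The ISRE core was searched as GAAANNGAAA on both strands with overlaps allowed. It was present for 13 of the 28 members (46.4%), against 3.99% of 27025 gene symbols with windows of the same length. The element led by interferon gamma, searched as TTCNNNGAA, was present for 5 of the 28 (17.9%), against 9.55% of all symbols. A match is a description of the letters and no evidence of binding. The stretches below, of 100 bases each, belong to members whose levels are described later, and capitals mark the cores.
Isg15: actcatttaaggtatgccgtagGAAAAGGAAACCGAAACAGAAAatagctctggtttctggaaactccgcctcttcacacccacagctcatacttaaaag
Rsad2: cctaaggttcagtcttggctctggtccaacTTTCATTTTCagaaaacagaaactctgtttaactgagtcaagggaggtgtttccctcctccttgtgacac
Ifit3: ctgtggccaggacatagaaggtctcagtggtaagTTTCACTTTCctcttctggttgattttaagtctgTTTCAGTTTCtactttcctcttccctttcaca
Oas1a: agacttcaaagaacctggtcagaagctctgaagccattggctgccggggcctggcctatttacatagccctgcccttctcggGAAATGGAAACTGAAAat
Oas1g: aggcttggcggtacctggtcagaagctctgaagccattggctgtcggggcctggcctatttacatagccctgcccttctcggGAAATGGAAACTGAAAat
Oas3: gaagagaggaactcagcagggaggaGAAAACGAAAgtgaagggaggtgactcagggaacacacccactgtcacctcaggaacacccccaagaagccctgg
Bst2: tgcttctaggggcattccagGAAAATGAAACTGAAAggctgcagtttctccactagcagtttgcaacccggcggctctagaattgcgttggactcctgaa
These lie at chr4:156200819-156200918 (Isg15, minus strand), chr12:26456503-26456602 (Rsad2, minus), chr19:34583339-34583438 (Ifit3, plus), chr5:120907528-120907627 (Oas1a, minus), chr5:120887614-120887713 (Oas1g, minus), chr5:120777660-120777759 (Oas3, minus) and chr8:71537523-71537622 (Bst2, minus). Isg15 held 3 overlapping cores, and Oas1a, Oas1g and Bst2 held 2 each. The stretch of Ifit3 matched that of its neighbour Ifit3b at 100 of 100 bases, and Oas1a matched Oas1g at 93 of 100. Reads may be shared between such close copies, so the levels of Ifit3 and Ifit3b, of Oas1a and Oas1g, of Oasl1 and Oasl2 and of Mx1 and Mx2 are uncertain as single genes. Parp9 and Dtx3l start next to each other on opposite strands, and the counting is not stated to use strand.

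By a Y-linked gene the libraries fell into 2 kinds that the labels do not describe, and this bears on the comparisons below. N 1, N 2, LMS 2 and LMS 5 had Eif2s3y, a Y-linked gene, at 0 FPKM and Xist between 48.1 and 59.9 FPKM. The other 14 libraries had Eif2s3y between 31.0 and 43.0 FPKM although all mice were labelled female, and they are called Y-positive here. Their Xist was 0.286 FPKM in N 3 and 1.49 to 2.69 in the Y-positive LMS libraries. It was 4.98 to 6.69 FPKM in LM and 4.84 to 7.20 in LMA, so the Y-positive libraries were not all alike. The reason was not tested. The summed level of 10 T cell markers was 418 to 681 FPKM in the 4 Y-negative libraries and 8.08 to 130 in the Y-positive ones. B cell markers summed to 4134 to 6298 against 140 to 2075, and macrophage markers to 599 to 704 against 1927 to 3420. The macrophage genes were divided, since 4 of 11, among them Lyz2, Cd68 and Csf1r, were lower in all Y-negative libraries, while 6 were higher, such as C1qb at 44.3 to 56.6 against 1.09 to 14.6 FPKM. Hemoglobin genes took 16.8% to 18.4% of the summed FPKM in N 2, LMS 2 and LMS 5, 0.67% in N 1 and at most 1.85% elsewhere. N 1 also stood apart from N 2, LMS 2 and LMS 5 in other genes. It was above all of them for 26 of the 39 members and below for 10, against 48.7% and 31.5% of all genes tested. Over the genes tested N 1 correlated with N 2 at 0.908, and LMS 2 with LMS 5 at 0.994. In bulk RNA, fewer cells of a type and less RNA per cell cannot be told apart. LM and LMA were Y-positive throughout, N held 1 such library (N 3) and LMS held 4. Each comparison is therefore given over all 18 libraries and again over the 14 Y-positive libraries, a choice made after the libraries were seen.

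Between the library kinds the members split in both directions. Of the 39, 16 were higher in all 4 Y-negative libraries than in any Y-positive one, 13 were lower and 10 overlapped, against 29.2% higher and 28.1% lower among all genes tested. Samd9l, which restrains cell growth and virus replication, was 59.6 to 69.6 FPKM in the Y-negative libraries and 7.71 to 11 in the Y-positive ones. Ifi47, a GTPase of the cell's own defence, was 35.7 to 49.3 against 2.52 to 11.9 FPKM. In the opposite direction, Oas1g was 0.539 to 0.987 FPKM in the Y-negative libraries and 13.6 to 21.7 in the Y-positive ones. Phf11d, described after its values were seen, was likewise 0.812 to 1.03 against 8.98 to 12.6 FPKM. Members of one response thus stood on opposite sides of the same library split, as the heat map of the 39 members shows. The part of cell makeup in these differences was not tested.

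**Figure D1:**
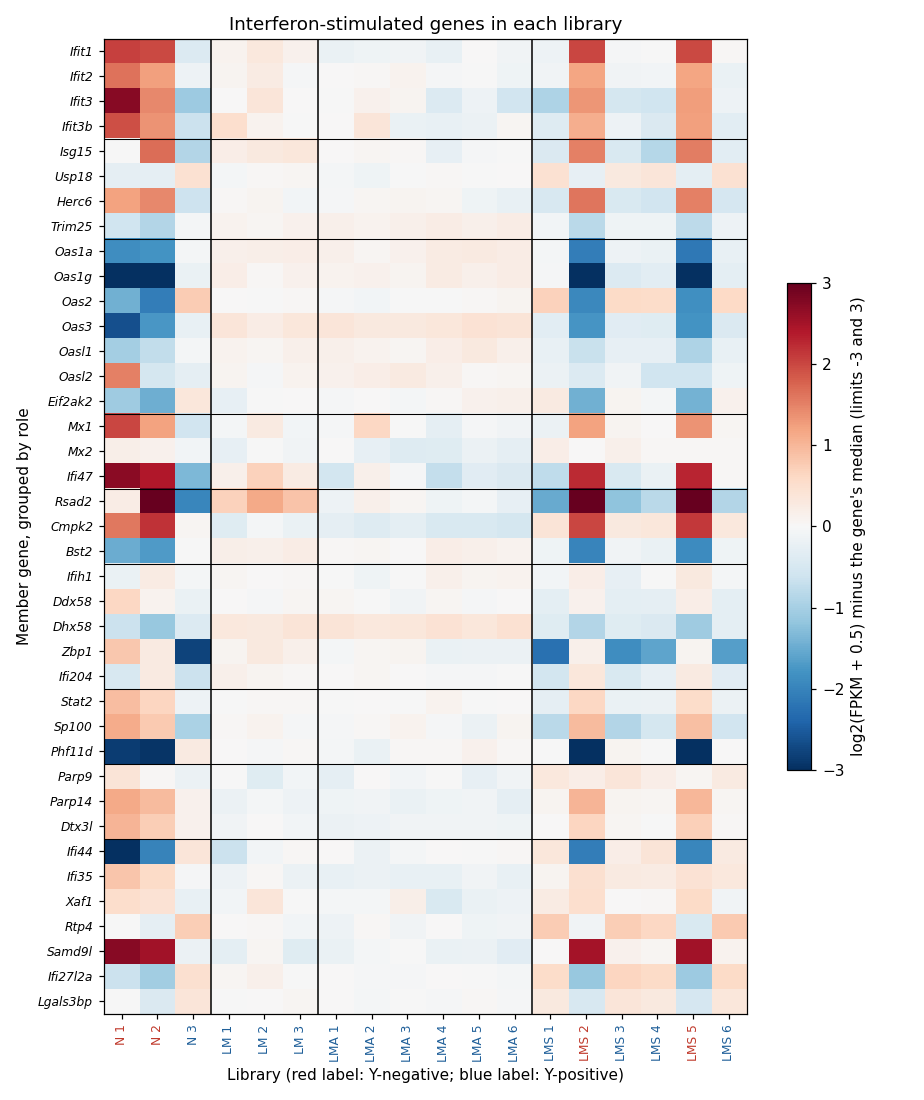
Heat map of the 39 members (rows, by role) in the 18 libraries (columns, by group), coloured by log2(FPKM + 0.5) relative to the member's own median. The Y-negative libraries N 1, N 2, LMS 2 and LMS 5 stand apart, and the 4 other LMS libraries differ from the LM and LMA libraries in both directions.

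The score over all members did not separate the treatments when all 18 libraries were taken. It was 3.17 ± 0.22 (SD, n = 3) in N, 3.25 ± 0.05 (n = 3) in LM, 3.16 ± 0.03 (n = 6) in LMA and 3.13 ± 0.11 (n = 6) in LMS on the log2 scale. The group ranges were 2.91 to 3.31, 3.21 to 3.31, 3.13 to 3.20 and 3.03 to 3.27, so that N and LMS each covered the whole LMA range. Within the Y-positive libraries the ranges did not overlap, with LM above LMA, LMA above LMS (3.03 to 3.10) and N 3 lowest at 2.91. No test was made on the score.

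**Figure D2:**
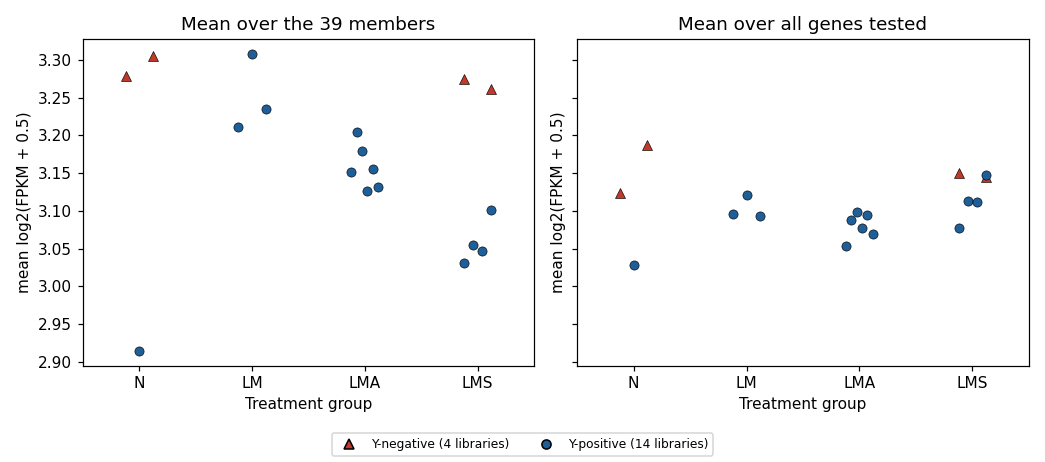
Mean log2(FPKM + 0.5) of each library over the 39 members (left) and over the 11436 genes tested (right), by treatment group, with Y-negative libraries as triangles and Y-positive ones as circles. The members' mean spans 2.91 to 3.31 and the mean over all genes tested 3.03 to 3.19.

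The comparison of LMA with LMS asks whether the costimulatory and the inhibitory antibody leave different expression in spleen cells. Over all 18 libraries, 4 of the 38 tested members rose in LMA and 4 fell, against 11.3% and 19.4% of all genes tested, so the share that rose was near the background and the share that fell was under it. The 4 that rose were Dhx58, Oas3, Oasl1 and Trim25, and the 4 that fell were Cmpk2, Parp14, Ifi35 and Parp9. The median log2 change was -0.05 over the members and -0.12 over all genes tested. Over the Y-positive libraries (6 LMA, 4 LMS), 17 rose and 12 fell, against 28% and 44% of all genes tested, so the members' share was above the background for rises and under it for falls. These shares are a description without a test, since the members were chosen with earlier results known. Scaling each library by the median of ratios moved the median change of all genes from -0.12 to -0.01. The split was then 5 higher and 2 lower over all libraries and 20 higher and 9 lower over the Y-positive ones. The shares of all genes under this scaling are not given here, so these splits have no background beside them.

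**Figure D3:**
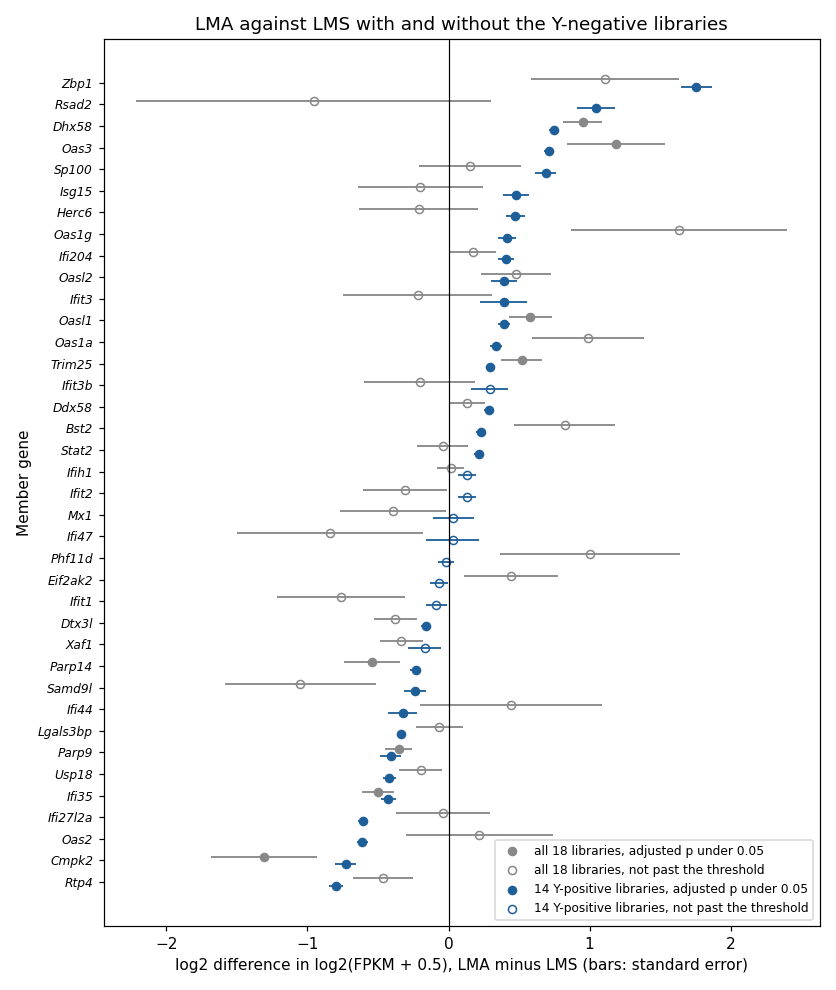
Log2 change on the FPKM + 0.5 scale of each tested member in LMA against LMS, over all 18 libraries and over the 14 Y-positive libraries. Bars are standard errors, and members are ordered by their change over the Y-positive libraries. Sensors and OAS genes lie mostly above 0 in the Y-positive libraries and the ADP-ribosylation genes below 0.

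Several cell markers moved along the same comparison. In the Y-positive libraries, all 10 neutrophil markers were higher in every LMA library than in any of the 4 LMS libraries, and their sum was 2055 to 2795 against 145 to 307 FPKM. B cell markers summed to 1561 to 2075 against 482 to 1039, with 2 of 10 genes not overlapping. The macrophage sum was lower in LMA, 1927 to 2052 against 3119 to 3267, although 5 of the 11 macrophage markers were higher and 2 lower without overlap. T cell markers summed to 62.6 to 106 against 35.3 to 75.1. The NK cell sum was lower in LMA (6.49 to 12.4 against 15.0 to 32.4), with 2 of 7 genes lower and 0 higher without overlap. Much of that sum was Gzma (2.80 to 6.02 against 10.6 to 22.4). The conventional dendritic cell sum was higher (10.7 to 13.3 against 5.23 to 6.40), with 2 of 6 genes higher and 0 lower without overlap. Much of it was Itgax (7.71 to 8.81 against 3.06 to 3.38). Erythroid markers were also higher, at 1357 to 2632 against 551 to 1178 with 6 of 7 genes not overlapping. The share of all genes without overlap between these groups is not given here, so the marker counts have no background beside them. For LM and LMA together against the Y-positive N and LMS libraries, 19.4% of all genes tested lay wholly above and 33.4% wholly below. The part of these cell types in the members' differences was not tested.

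Among the sensors of viral nucleic acid, 4 of 5 rose in LMA over the Y-positive libraries and none fell, while 1 of 5 rose over all libraries. Dhx58 (ENSMUSG00000017830) encodes LGP2, which tunes the cytoplasmic RNA sensors. Its level was 9.79, 6.77 and 11.6 FPKM in N, 19.7, 19.1 and 20.6 in LM, 19.7 to 21.5 (median 20.3) in LMA and 7.16 to 12.7 (median 11.6) in LMS. All LM and LMA libraries were above all N and LMS libraries, whichever kind they were. Such a separation was found upward for 7 of the 39 members, against 9.21% of all genes tested. Downward it was found for 2 of the 39, against 12.8%. The LMA to LMS difference was 0.95 ± 0.14 (SE) on the log2 scale, a fold of 1.93, with a Benjamini-Hochberg adjusted p of 6.17e-05 by limma. Dhx58 was also 1.07 ± 0.19 higher in LM than in N (adjusted p = 0.00095), 1.12 ± 0.17 higher in LMA than in N (adjusted p = 0.00012) and changed by -0.90 ± 0.17 in LMS against LM (adjusted p = 0.00105). Ddx58 encodes RIG-I, the sensor of triphosphate RNA. It was 29.9, 20.8 and 16.8 FPKM in N, 19.5, 19.0 and 20.2 in LM, 18 to 20.3 (median 19.4) in LMA and 15.7 to 22.2 (median 15.9) in LMS. The groups overlapped over all libraries, with a log2 change of 0.13 ± 0.12 in LMA against LMS (adjusted p = 0.454), and did not overlap within the Y-positive ones (0.28 ± 0.03, adjusted p = 4.77e-06).

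Zbp1 (ENSMUSG00000027514), the sensor of Z-form nucleic acid that can start necroptosis, gave the largest Y-positive change of the 38 members between LMA and LMS and is described because of that value. It was 18.6, 12.7 and 1.09 FPKM in N, 11.1, 13.0 and 11.7 in LM, 9.05 to 11.1 (median 9.60) in LMA and 1.83 to 11.6 (median 3.07) in LMS. The Y-positive N and LMS libraries were all at or under 3.18 FPKM, while the Y-negative ones were between 11.1 and 18.6 FPKM, near or above the LM libraries. Over all libraries the change was 1.11 ± 0.53 on the log2 scale (adjusted p = 0.128), and over the Y-positive libraries it was 1.76 ± 0.11 (limma, adjusted p = 9.14e-09). Ifi204, a sensor of DNA, was 6.88 to 7.37 FPKM in LMA and 4.66 to 5.87 in the Y-positive LMS libraries, and it rose by 0.41 ± 0.05 there (adjusted p = 1.48e-05). Ifih1, which encodes the long-RNA sensor MDA5, stayed within 4.17 to 6.34 FPKM over all 18 libraries and passed the test in neither fit.

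The OAS enzymes make a messenger oligoadenylate that switches on the RNA-degrading RNase L. Of the 7 members in the OAS and PKR group, 2 rose in LMA against LMS over all libraries. In the Y-positive libraries 5 rose and 1 fell. Oas3 (ENSMUSG00000032661) was 5.09, 9.80 and 28.9 FPKM in N, 43.9, 40.1 and 43.2 in LM, 41.5 to 45.8 (median 43.6) in LMA and 9.43 to 27.0 (median 25.8) in LMS. No N or LMS library reached the lowest LM or LMA library. Its log2 change was 1.19 ± 0.35 in LMA against LMS (limma, adjusted p = 0.0159), 1.85 ± 0.49 in LM against N (adjusted p = 0.0127) and 1.89 ± 0.43 in LMA against N (adjusted p = 0.00313). Within the Y-positive libraries the LMA to LMS change was 0.71 ± 0.04. Oasl1, an OAS-like protein without the enzyme activity that in mice restrains the translation of Irf7, was 5.42, 6.68 and 11.1 FPKM in N, 12.4, 11.9 and 12.7 in LM, 11.9 to 14.1 (median 12.9) in LMA and 5.77 to 9.83 (median 9.66) in LMS. It followed the same order without overlap and differed by 0.58 ± 0.15 between LMA and LMS (adjusted p = 0.00758).

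Oas1a and Oas1g carried the same cores next to their starts, and both were low in all Y-negative libraries. Oas1a was 6.51, 6.85 and 23.9 FPKM in N, 27.8, 28.1 and 28.8 in LM, 25.9 to 30.4 (median 28.6) in LMA and 5.22 to 23.9 (median 21.6) in LMS. Oas1g was 0.539, 0.987 and 16.0 FPKM in N, 21.1, 18.9 and 20.1 in LM, 19.3 to 21.7 (median 20.2) in LMA and 0.676 to 17.7 (median 14.2) in LMS. LM and LMA lay above every other library for both. The log2 change in LMA against N was 1.42 ± 0.48 for Oas1a (adjusted p = 0.0328) and 2.83 ± 0.94 for Oas1g (adjusted p = 0.0283), and within the Y-positive libraries it was 0.24 and 0.34. Against LMS the changes over all libraries were 0.99 ± 0.39 (adjusted p = 0.0705) and 1.64 ± 0.76 (adjusted p = 0.122), and within the Y-positive libraries both passed at 0.33 ± 0.04 and 0.42 ± 0.06. Oas2, named after its values were seen, went the other way there, with 7.50 to 8.43 FPKM in LMA, 11.9 to 13.1 in the Y-positive LMS libraries and a change of -0.61 ± 0.04 (adjusted p = 7.38e-09). Oasl2 rose by 0.39 ± 0.09 in the Y-positive libraries, and Eif2ak2, which encodes the translation-blocking kinase PKR, did not pass there (-0.07 ± 0.07).

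**Figure D4:**
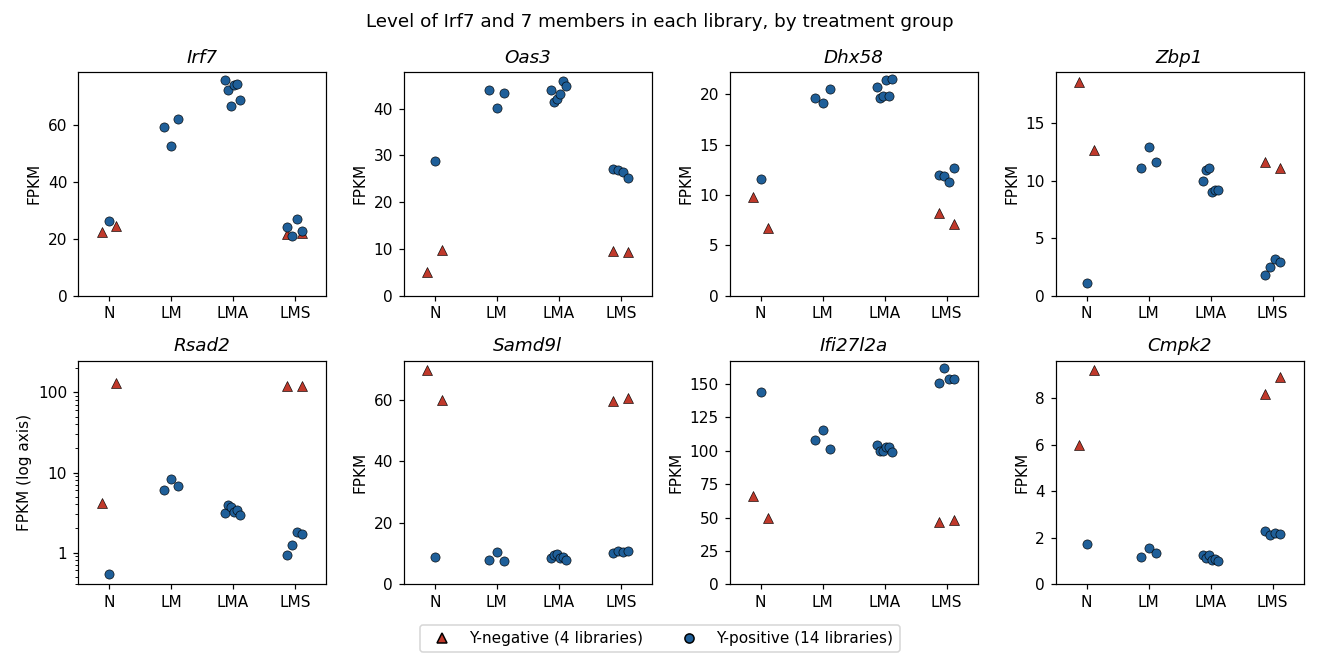
FPKM of Irf7 and 7 members in each of the 18 libraries, by group, with Y-negative libraries as triangles and Y-positive ones as circles (the Rsad2 axis is logarithmic, the others start at 0). Irf7, Oas3 and Dhx58 are higher in all LM and LMA libraries than in all N and LMS libraries and Cmpk2 is lower, while Zbp1, Rsad2, Samd9l and Ifi27l2a change order with the library kind. Of all genes tested, 9.21% are higher and 12.8% lower in all LM and LMA libraries in this way.

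Isg15 is a ubiquitin-like protein that Herc6 attaches to targets in mice and Usp18 removes. In this group of 4, 1 member rose in LMA against LMS over all libraries. In the Y-positive libraries 3 rose and 1 fell. Trim25, a ligase that activates RIG-I, was 21.9, 17.8 and 32.1 FPKM in N, 36.0, 34.9 and 36.4 in LM, 36.0 to 39.3 (median 37.4) in LMA and 18.9 to 31.8 (median 30.2) in LMS. It did not overlap between LMA and LMS and differed by 0.52 ± 0.15 on the log2 scale (limma, adjusted p = 0.0141), and by 0.29 ± 0.03 within the Y-positive libraries. Isg15 itself was 9.82, 33.0 and 5.23 FPKM in N, 11.5, 12.3 and 12.8 in LM, 8.27 to 10.4 (median 9.96) in LMA and 5.32 to 29.6 (median 7.57) in LMS. Its 3 highest libraries were the hemoglobin-rich ones, and the change was -0.20 ± 0.44 over all libraries (adjusted p = 0.773) and 0.48 ± 0.09 over the Y-positive ones (adjusted p = 0.000324). Herc6 rose by 0.47 ± 0.07 in the Y-positive libraries. Usp18, the protease that also damps signalling at the receptor, fell by 0.42 on the log2 scale (12.3 to 13.9 FPKM in those LMS libraries, 9.05 to 10.2 in LMA), and both are named after their values were seen.

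The IFIT proteins bind foreign RNA ends and stop its translation. None of the 4 passed between LMA and LMS over all libraries, and Ifit3 alone rose over the Y-positive ones. Ifit3 was 11.5, 4.39 and 0.338 FPKM in N, 1.32, 1.82 and 1.30 in LM, 0.71 to 1.46 (median 1.19) in LMA and 0.444 to 3.99 (median 0.935) in LMS. The Y-positive groups still overlapped at a change of 0.39 ± 0.17 (limma, adjusted p = 0.0488). Ifit2 was 9.23, 6.87 and 2.35 FPKM in N, 2.84, 3.24 and 2.56 in LM, 2.39 to 2.91 (median 2.65) in LMA and 2.24 to 6.68 (median 2.44) in LMS, with the 4 Y-negative libraries at the top. Ifit1 and Ifit3b likewise had their 4 highest values in the Y-negative libraries.

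Among the antiviral proteins of the membrane and of nucleotide metabolism, Rsad2 had the widest range of all members. It encodes viperin, which makes a nucleotide that ends viral RNA chains. Rsad2 (ENSMUSG00000020641) was 4.19, 133 and 0.543 FPKM in N, 6.03, 8.33 and 6.79 in LM, 2.91 to 3.98 (median 3.30) in LMA and 0.92 to 120 (median 1.74) in LMS. Its level stood in nearly the same order as the hemoglobin share of the library, in both library kinds. N 1, with 0.67% hemoglobin, was within the LMA range of that share (0.379% to 0.731%) and just above the highest LMA library in Rsad2. LM (1.27% to 1.85%) was above LMA in both measures, and the Y-positive LMS libraries (0.148% to 0.300%) were below LMA in both. Erythroid markers were higher in LM than in LMA without overlap for 6 of 7 genes, a count with no share of all genes beside it. Whether red cell precursors or their RNA account for these levels was not tested. Over all libraries no comparison called Rsad2. Over the Y-positive libraries it rose by 1.04 ± 0.13 in LMA against LMS (limma, adjusted p = 9.67e-06).

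**Figure D5:**
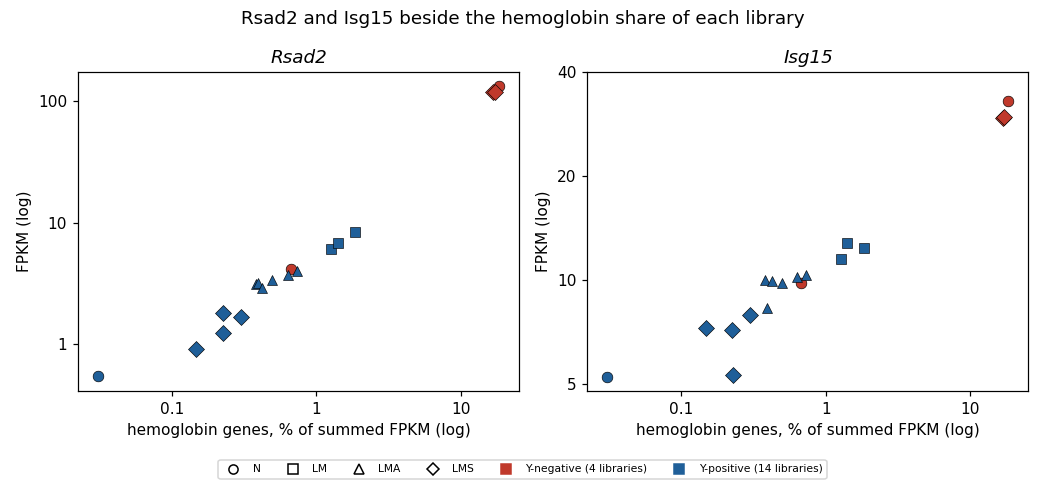
FPKM of Rsad2 and Isg15 (vertical, log axes) against the share of summed FPKM taken by hemoglobin genes (horizontal, log axis) in each of the 18 libraries, with the shape giving the group and the colour the library kind. Rsad2 runs from 0.543 FPKM in N 3 to 133 in N 2 along the hemoglobin share, and N 1 lies beside the LMA libraries.

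Cmpk2, the neighbour of Rsad2 on chromosome 12 and a mitochondrial nucleotide kinase, did not follow it in the Y-positive libraries. It was 5.98, 9.19 and 1.75 FPKM in N, 1.18, 1.55 and 1.36 in LM, 0.986 to 1.28 (median 1.11) in LMA and 2.13 to 8.91 (median 2.26) in LMS. LM and LMA were below every other library. The log2 change was -1.31 ± 0.38 in LMA against LMS (adjusted p = 0.0139) and -1.68 ± 0.46 in LMA against N (adjusted p = 0.0107). Bst2, or tetherin, holds budding virus at the cell surface. It was 26.1, 22.5 and 73.8 FPKM in N, 83.8, 83.2 and 86.2 in LM, 75.1 to 85.1 (median 78.3) in LMA and 18.6 to 69 (median 66.4) in LMS. LM and LMA were again above all others, with a change of 0.82 ± 0.36 in LMA against LMS (adjusted p = 0.0971) and of 0.23 ± 0.04 within the Y-positive libraries (adjusted p = 6.01e-05).

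The nuclear members Stat2 and Sp100 did not pass between LMA and LMS over all libraries and rose over the Y-positive ones. Stat2, a factor of the ISRE-binding complex, was 18.1, 14.8 and 8.37 FPKM in N, 9.28, 9.60 and 9.57 in LM, 9.22 to 10.1 (median 9.32) in LMA and 7.70 to 14.5 (median 8.20) in LMS. Sp100, a component of nuclear bodies, was 53.2, 42 and 12.3 FPKM in N, 24.7, 25.9 and 23.7 in LM, 21.4 to 26.1 (median 24.2) in LMA and 12.8 to 46.8 (median 16.5) in LMS. For both the Y-negative libraries were highest and the Y-positive N and LMS libraries lowest. Their changes were 0.22 ± 0.03 and 0.69 ± 0.07 in the Y-positive libraries (adjusted p = 7.05e-05 and 1.86e-06) and -0.04 ± 0.18 and 0.15 ± 0.36 over all libraries.

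The ADP-ribosylation group, Parp9 with its ligase partner Dtx3l and Parp14, was lower in LMA. Over all libraries 2 of 3 fell, and over the Y-positive libraries all 3 fell. Parp14 was 16.9, 14.7 and 8.12 FPKM in N, 6.52, 7.09 and 6.54 in LM, 6.08 to 6.81 (median 6.65) in LMA and 7.70 to 15.5 (median 7.86) in LMS. LM and LMA lay below all N and LMS libraries, at -0.54 ± 0.20 in LMA against LMS (adjusted p = 0.048) and -0.87 ± 0.28 in LM against N (adjusted p = 0.0335). Parp9 was 16.0, 12.4 and 10.6 FPKM in N, 12, 9.30 and 11.5 in LM, 9.94 to 12.2 (median 11.3) in LMA and 12.6 to 15.8 (median 14.3) in LMS. LMA and LMS did not overlap, whereas LMA and N did, and the LMA to LMS change was -0.35 ± 0.096 (adjusted p = 0.0101). Dtx3l was 21.3, 17.3 and 11.2 FPKM in N, 9.52, 10.4 and 9.61 in LM, 8.95 to 9.47 (median 9.33) in LMA and 10.2 to 17 (median 10.6) in LMS. Its log2 change was -0.76 ± 0.19 in LMA against N (adjusted p = 0.00505), and -0.38 ± 0.15 against LMS (adjusted p = 0.0715).

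Of the 7 other interferon-induced proteins, 1 fell in LMA against LMS over all libraries and 6 fell over the Y-positive ones. Ifi35, which binds other interferon-induced proteins, was 21.3, 17.8 and 11.4 FPKM in N, 10.4, 12 and 10.3 in LM, 9.88 to 10.7 (median 9.96) in LMA and 12.4 to 16.5 (median 14.4) in LMS. It fell without overlap against LMS (-0.50 ± 0.11, adjusted p = 0.00304), and it was lower in LM than in N although LM 2 lay above N 3 (-0.56 ± 0.16, adjusted p = 0.0198). Ifi27l2a, a mitochondrial protein with the highest level among the members of this group, was 65.9, 50 and 144 FPKM in N, 108, 115 and 102 in LM, 98.9 to 104 (median 101) in LMA and 46.6 to 162 (median 152) in LMS. The Y-negative libraries were lowest and the Y-positive LMS libraries highest, at -0.61 ± 0.03 in the Y-positive fit (adjusted p = 1.73e-09) and -0.04 ± 0.33 over all libraries. Lgals3bp, a secreted glycoprotein, was 30.4, 22.6 and 39.1 FPKM in N, 30.2, 30.5 and 31.6 in LM, 29.2 to 31.0 (median 30.0) in LMA and 21.2 to 39 (median 37.6) in LMS, and a Y-positive change of -0.34 ± 0.02 in LMA against LMS. Here N 1 lay within the LMA range and N 3 above all LMS libraries.

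Samd9l showed how far a call could rest on the Y-negative libraries. It was 69.6, 59.9 and 8.87 FPKM in N, 8.08, 10.4 and 7.71 in LM, 7.90 to 9.93 (median 8.83) in LMA and 10.2 to 60.6 (median 10.9) in LMS. LMA was lower than N over all libraries (-1.85 ± 0.65, adjusted p = 0.0383) although N 3 lay within the LMA range, and the change was 0.012 over the Y-positive libraries. Against LMS it was -1.05 ± 0.53 over all libraries and -0.24 ± 0.08 over the Y-positive ones (adjusted p = 0.0147). Rtp4, a chaperone of receptors named after its values were seen, fell by 0.80 on the log2 scale in the Y-positive libraries, with 8.18 to 9.41 FPKM in LMA and 14.3 to 16.2 in LMS. Of the 2 tested GTPases neither passed between LMA and LMS in either fit. Ifi47 was 49.3, 39.6 and 2.52 FPKM in N, 7.95, 11.9 and 8.55 in LM, 4.18 to 8.02 (median 5.36) in LMA and 4.01 to 36.8 (median 6.77) in LMS. Mx2 ranged from 1.18 to 2.03 FPKM and was not tested.

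LPPC/MP alone was set against naive mice in the comparison of LM with N. Over all libraries 4 of 38 members rose and 3 fell, against 9.18% and 15.9% of all genes tested. Dhx58, Oas3, Oasl1 (0.70 ± 0.21, adjusted p = 0.0254) and Trim25 (0.61 ± 0.21, adjusted p = 0.0445) rose, and Parp14, Dtx3l (-0.68 ± 0.21, adjusted p = 0.0297) and Ifi35 fell. In LMA against N, 6 rose and 5 fell, against 13.6% and 21.9%. These were Oas1g, Oas3, Oas1a, Dhx58, Oasl1 (0.76 ± 0.18) and Trim25 (0.68 ± 0.18) on one side and Samd9l, Cmpk2, Parp14 (-0.90 ± 0.24), Dtx3l and Ifi35 (-0.66 ± 0.14) on the other. Both comparisons share the naive libraries, and in both the share that rose was near the background. Median-of-ratios scaling moved the median change of all genes from -0.11 to 0.00014 and from -0.13 to 0.0085. The splits were then 4 and 1 for LM and 8 and 4 for LMA, with no share of all genes under this scaling beside them. With N 3 as the lone naive library, which is then assumed to vary like the other groups, 18 rose and 10 fell in LM (25.8% and 34.4% of genes), and 19 rose and 10 fell in LMA (25.6% and 36%). Neutrophil markers summed to 1458 to 1702 FPKM in LM and 2055 to 2795 in LMA against 26.4 in N 3. T cell markers summed to 98.0 to 130 in LM and 62.6 to 106 in LMA against 8.08 in N 3. For B cell markers the sums were 1282 to 1749 and 1561 to 2075 against 140. The macrophage sum was higher in N 3, at 3420 against 1936 to 2015 and 1927 to 2052. N 3 thus differed widely from both groups in cell markers, and the part of this in these changes was not tested.

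LMS against N called no member and no gene by limma over all libraries (0% in both directions), and 506 genes (4.42%) but no member had an unadjusted p under 0.05. In the Y-positive libraries, where N was N 3 alone, 1 member rose and none fell, against 5.03% and 0.245% of genes. It was Zbp1, at 0.95 on the log2 scale (adjusted p = 0.00877). For 25 of the 29 members called there between LMA and LMS, N 3 lay nearer to the LMS median than to the LMA median, with Bst2, Ifi35, Parp9 and Samd9l as the exceptions. The same held for 90.9% of all 8242 genes called there, so the members' share was near that of genes at large. A lone library gives no measure of its own spread.

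LMS against LM called Parp9 as higher (0.38 ± 0.12, adjusted p = 0.0301) and Dhx58 as lower over all libraries, against 13.3% and 7.94% of genes. After median-of-ratios scaling no member was higher and 2 were lower, again without a share of all genes under this scaling beside them. In the Y-positive libraries 11 rose and 21 fell, against 40.5% and 27.6% of genes, so the members' share was under the background for rises and above it for falls. Zbp1 (-2.01 ± 0.13) and Rsad2 (-1.996 ± 0.16) changed most in this comparison.

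The comparison of LMA with LM covers the added doses, the antibody and the later week. No member and no gene passed by limma over all libraries (0% in both directions), while 131 genes (1.15%) and no member had an unadjusted p under 0.05. The spread of each gene was estimated over all groups, so it took in both library kinds within N and LMS. LM and LMA held Y-positive libraries only, so the lack of calls says little about this comparison. The smallest unadjusted p among the members was that of Xaf1, a partner of inhibitors of cell death (log2 change -0.21, adjusted p = 1 by limma), with 9.45, 8.85 and 5.47 FPKM in N, 6.05, 8.44 and 6.34 in LM, 4.57 to 7.34 (median 5.95) in LMA and 5.91 to 9.81 (median 7.17) in LMS. Ifi47 (-0.68), Ifi35 (-0.10) and Rsad2 (-0.95 ± 1.54) followed, also at an adjusted p of 1. Within the Y-positive libraries 1 member fell and none rose, against 0.437% and 0.14% of genes. This was Rsad2 (-0.95 ± 0.15, adjusted p = 0.0115), and the call was lost without LM 2 or without LM 3. LM also had the higher hemoglobin share, as given above.

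The pathway around the members was examined through 84 listed genes, of which 60 were tested. Of 20 type I and III interferon genes, 13 were at 0 in every library, none passed the filter, and the highest value was 0.111 FPKM. Ifnb1, the beta interferon, was at most 0.0525 FPKM in LMA. Irf7 was 22.3, 24.4 and 26.4 FPKM in N, 59.5, 52.6 and 62.4 in LM, 66.7 to 76.1 in LMA and 21.0 to 26.9 in LMS, and the Y-negative N and LMS libraries (21.7 to 24.4) lay within the range of the Y-positive ones. No LM or LMA library was Y-negative. The change was 1.62 ± 0.07 in LMA against LMS (adjusted p = 1.34e-10) and 1.59 ± 0.07 within the Y-positive libraries. The receptor chains Ifnar1 and Ifnar2 were also higher in LMA than in LMS, by 0.52 ± 0.14 (adjusted p = 0.00849) and 0.39 ± 0.08 (adjusted p = 0.00198).

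Irf9, a factor of the ISRE-binding complex, changed by -0.08 ± 0.22 in LMA against LMS over all libraries and by 0.24 ± 0.08 over the Y-positive ones. Of the 60 tested pathway genes, 9 were higher and 11 lower in LMA against LMS over all libraries, and 36 were higher and 14 lower over the Y-positive ones. Against the 11.3% and 19.4% of all genes given above, the former counts are near the background, and against 28% and 44% the latter are above it for rises and under it for falls. The 25 tested genes led by interferon gamma were split into 2 higher and 3 lower over all libraries, near or under those backgrounds, and into 18 higher and 3 lower over the Y-positive ones, above 28% for rises and under 44% for falls. Ifng was 0 to 3.27 FPKM.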

How the data were processed

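Splenocyte RNA of 18 samples was sequenced on an Illumina NovaSeq. The files were deposited as assembled transcript tables, 1 per sample, and the authors had estimated gene levels and normalized them as FPKM, against mm10 and with GATK 4.2 among the tools named in the submitters' processing notes. No source used here names the aligner or the counter. The deposited coverage column is a signal of mean read depth per gene. Its most frequent ratio to FPKM, among genes over 1 FPKM, gave 5.21 to 7.92 gigabases of aligned sequence per library. Only 32.6% to 34.3% of those genes held nearly this ratio, so the depth is an estimate. The deposited tables also carry a column headed TPM whose sum exceeds its nominal total, so it was recorded as a score without a fixed unit and was not used. The members' mean in the report was computed from FPKM. Read counts were not used, so no counting interval is given.

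Tests were run on log2(FPKM + 0.5) for protein-coding genes that averaged 0.5 FPKM or more, and used limma 3.58.1 in R 4.3.3 (all 18 samples, group as the only term, trend in the variance, two-sided, Benjamini-Hochberg adjustment over all 11436 genes, threshold 0.05). Changes of low genes are understated on this scale. The fit was tested on simulated data. Tables were made in Python 3.11.15 (pandas 2.3.3, numpy 2.4.6), and figures in matplotlib 3.10.9. Groups were taken from the treatment labels.

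Members, gene lists and tests were chosen with earlier results of these data known. Values in full were given for the 2 members with the highest mean in each role group, the 4 largest rises and falls called per comparison, the 4 smallest p in LMA against LM and members outside the test, and other members are named as such. Alternatives were the pseudocount, the filter, scaling, weights, a replicate block, the compared groups alone and leaving out libraries. Fits over the Y-positive and over the Y-negative libraries were added or extended after seeing the data. Deviations from the group means correlated over 0.1 in 13 of 21 same-numbered pairs (from -0.642 to 0.906), among them all 6 pairs of samples numbered 2. Since not every pair did, the numbers were not taken to pair samples. Results for 1 pathway gene are not reported here.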

Additional observations from a re-analysis of the deposited data

Results flagged for a closer look

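In groups of 6, a sample was singled out when its gap to the nearest other sample was large against the whole range of the group (Dixon's criterion at the 95% level). Of 52 groups checked over 25 members and the score, 2 met this, and chance gives about 1 in 20. Both concerned LMA 4. Isg15 was 8.27 FPKM there, the lowest of the LMA libraries, which reached 10.4. Stat2 was 10.1 FPKM there, the highest of the LMA libraries, whose lowest was 9.22.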

How the results depend on the processing

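The counts below are of members alone, and the share of all genes called also changed with the setting. In LMA against LMS, 11.3% of genes were higher and 19.4% lower over all libraries, and 28% and 44% over the Y-positive ones. A larger count is therefore not a result about the members. Over all 18 libraries 7 members were called in LM against N, 11 in LMA against N, 0 in LMS against N, 0 in LMA against LM, 2 in LMS against LM and 8 in LMA against LMS. In that order of comparisons, sample weights, whose estimation stopped before it converged, gave 29, 29, 34, 0, 32 and 29, and the Y-positive libraries alone gave 28, 29, 1, 1, 32 and 29. Without the Y-positive N and LMS libraries LM against N, LMA against N, LMS against LM and LMA against LMS gave 32, 34, 32 and 31. There N and LMS were all Y-negative and LM and LMA all Y-positive, so treatment and library kind cannot be told apart. For the same comparisons the library kind as a covariate gave 22, 22, 30 and 25. With the compared groups alone, LM against N called 0 and LMA against LM called 1. Protein-coding sum scaling left 1 in LMS against LM. Leaving out each library in turn gave 1 to 24 in LM against N, 6 to 27 in LMA against N, 0 to 16 in LMS against N, 1 to 8 in LMS against LM and 7 to 11 in LMA against LMS. The high ends came without N 3, which left 24 in LM against N, 27 in LMA against N, 16 in LMS against N and 8 in LMS against LM. Without N 3 the naive libraries were all Y-negative, so LM and LMA against N cannot be told apart from library kind. The low ends came without N 1 (1 in LM against N) and N 2 (6 in LMA against N). LM against N also fell to 2 or 3 without any one LM library or N 2, and rose to 12 without LMS 2 or LMS 5. LMS against LM gave 6 without N 1 and 1 without LM 2, LM 3 or LMS 3. Within the Y-positive libraries leaving one out gave 0 to 1 in LMA against LM, 29 to 33 in LMS against LM and 28 to 30 in LMA against LMS. The change of Samd9l in LMA against N turned from -1.85 to 0.012 in the Y-positive libraries.

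Fitting the replicate number as a block moved LMS against LM from 2 to 1 called and no other comparison by over 1.5 times. The cause of these shifts was not tested. Over all libraries the 28 calls held in 763 of 868 refits, weakened in 104 and reversed in 1, and the 30 Y-positive calls in LMA against LM and LMA against LMS held in 580 of 600. Depth is known as aligned bases only, so members near 0 FPKM, such as Mx1 and Ifit3b, have no stated counting error.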
